A study of Drosophila melanogaster with 20 samples.

Results

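The glutathione transferases and the UDP-glycosyltransferases are the 2 large families of conjugating enzymes in the fly, and 69 of their genes were followed here in dissected brains of young and older wild-type and miR-34 null flies. A gene was taken as a member when a probe set of the array carried exactly one gene symbol and that symbol began with Gst and one of the class letters D, E, S, T, O or Z, or began with Ugt. Of the 11982 genes that had such a single-symbol probe set, 34 were glutathione transferases and 35 were UDP-glycosyltransferases. Where a gene had more than one probe set, the one with the highest mean signal over the 20 arrays stood for it, a choice of probe set that used no difference between groups. GstE8 was not analysed here.

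Glutathione transferases join the tripeptide glutathione to electrophilic compounds, among them insecticides, plant toxins and the aldehydes that arise from oxidised lipids, and some of them act as isomerases or peroxidases. The delta and epsilon classes are expanded in insects, whereas the sigma, theta, omega and zeta classes are shared with vertebrates. UDP-glycosyltransferases sit in the membrane of the endoplasmic reticulum and transfer a sugar from a UDP-sugar to small lipophilic molecules, which makes these easier to excrete and can also end the action of odorants and hormones. In the fly nervous system both families are known from glia and from the sense organs of the head, and part of the glutathione transferases is induced by the stress-responsive transcription factor CncC.

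The series compared 4 groups of 5 arrays each. Brains were dissected from wild-type flies of the line labelled 5905 and from miR-34 null flies of the line labelled 0110, aged naturally to either 3 d or 20 d, all kept on cornmeal and molasses food with dry yeast. miR-34 is a microRNA that post-transcriptionally represses its targets, and the null lacks it in every cell of the animal. Each genotype was represented by a single line label, so what the missing microRNA does and what else the 2 lines differ in cannot be told apart, and the null genotype was not checked here. The labels do not say whether a group's arrays hold RNA of separate sets of flies, the sex of the flies is not stated, and the p-values below measure only the spread between these arrays. In whole dissected tissue, fewer cells of a type and less RNA per cell cannot be told apart.

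Values are linear signals of an Affymetrix Drosophila 2 array in arbitrary units, scaled to a trimmed mean of 150 on every array, and the number of arrays sets the precision. Over the 9806 probe sets fitted below, the arrays of a group correlated at 0.989 to 0.997 and no correlation between groups was above 0.971. No array stood apart or was a copy of another. Differences are given as log2 changes of signal + 16 with the standard error (SE), fitted with limma over 9806 probe sets, and a change was called where the Benjamini-Hochberg adjusted p was under 0.05. The added 16 makes the change of a dim gene look smaller than it is. A probe set was tested if it lay above the median of its array on at least 5 of the 20 arrays, which 7704 genes did, 40 members among them. Signals of different probe sets cannot be read as relative amounts of transcript, so each gene is compared only with itself.

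Among the glutathione transferases 26 of 34 passed this filter: 6 of 11 delta, 10 of 13 epsilon, all 3 omega, the 1 sigma, all 4 theta and both zeta genes. The 8 that did not pass were GstD4, GstD5, GstD6, GstD7, GstD8, GstE4, GstE5 and GstE10. Their signals ran from 0.263 to 25.8, with GstE4 the highest, and 5 of them never exceeded 10. Of the UDP-glycosyltransferases 14 of 35 passed, with 1 of 8 from the Ugt37 group, none of 4 from the Ugt303 group and 3 of 4 from the Ugt36 group. The other 21 ran from 0.0223 to 25.4, and 18 of these never exceeded 10. Ugt36E1 passed on 6 arrays, GstE14 on 8, Ugt302K1 on 13, GstD2 and GstD10 on 15 each and Ugt36A1 on 19, whereas the other 34 tested members lay above the median on all 20. A member that passes only through the group in which it is bright has to differ between groups, so the counts below describe the tested members and not the families.

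The 3 brightest glutathione transferase probe sets, those of GstE12, GstD1 and GstE2, were called in no genotype comparison. GstE12, an epsilon enzyme, gave 1415, 1482, 1467, 1431 and 1427 in wild type and 1495, 1472, 1406, 1470 and 1366 in the null at 3 d and 1453, 1380, 1324, 1419 and 1422 in wild type and 1488, 1350, 1329, 1365 and 1424 in the null at 20 d. Its 4 groups overlapped, and its log2 changes, between -0.051 and -0.003, were not called in any comparison. GstD1, the delta enzyme whose promoter is widely used as a reporter of CncC activity, gave 1203, 1290, 1303, 1357 and 1359 in wild type and 1385, 1288, 1395, 1366 and 1277 in the null at 3 d and 1526, 1428, 1284, 1434 and 1453 in wild type and 1593, 1451, 1388, 1467 and 1340 in the null at 20 d. The genotypes overlapped at both ages, with a log2 change of 0.04 ± 0.05 (SE, adjusted p = 0.553) at 3 d and 0.02 ± 0.05 (SE, adjusted p = 0.742) at 20 d. With age GstD1 was called higher in wild type at 0.13 ± 0.05 (SE, adjusted p = 0.0315), and 7 of the arrays each ended that call when left out (adjusted p up to 0.102). GstE2 gave 1350, 1355, 1309, 1335 and 1373 in wild type and 1373, 1389, 1319, 1248 and 1225 in the null at 3 d and 1234, 1194, 1201, 1213 and 1260 in wild type and 1284, 1130, 1145, 1237 and 1153 in the null at 20 d. No genotype difference was called for GstE2, and the change with age was -0.14 in both genotypes.

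In young brains more tested glutathione transferases were lower than higher in the null: 12 were called lower, 3 higher and 11 neither. Over all genes tested at 3 d 19% were called lower and 16% higher. The median log2 change of the 26 was -0.10, beside -0.01 for all genes, and it was -0.15 under median centring. The groups did not overlap in 11 of the 12 lower calls, while they did not overlap in 65.9% of all genes called lower. At 20 d 12 were lower, 6 were higher and 8 were not called, against a background of 25.7% lower and 21.7% higher, and the median was -0.04 beside -0.01. That median turned to 0.03 when arrays were centred on their medians, with 7 higher and 11 lower, and it was -0.08 without the first old null array. The young and old comparisons share no arrays. Of the 12 lower at 3 d, 9 were also among the 12 lower at 20 d: GstD9, GstD10, GstE1, GstE7, GstE9, GstE14, GstO2, GstO3 and GstT2. Over all genes, 68.2% of those lower at 3 d were also lower at 20 d and 50.5% of those lower at 20 d were also lower at 3 d. GstO1 and GstZ1 were higher at both ages, GstE3 and GstT4 changed sign between the ages, and 6 were called at neither.

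**Figure D1:**
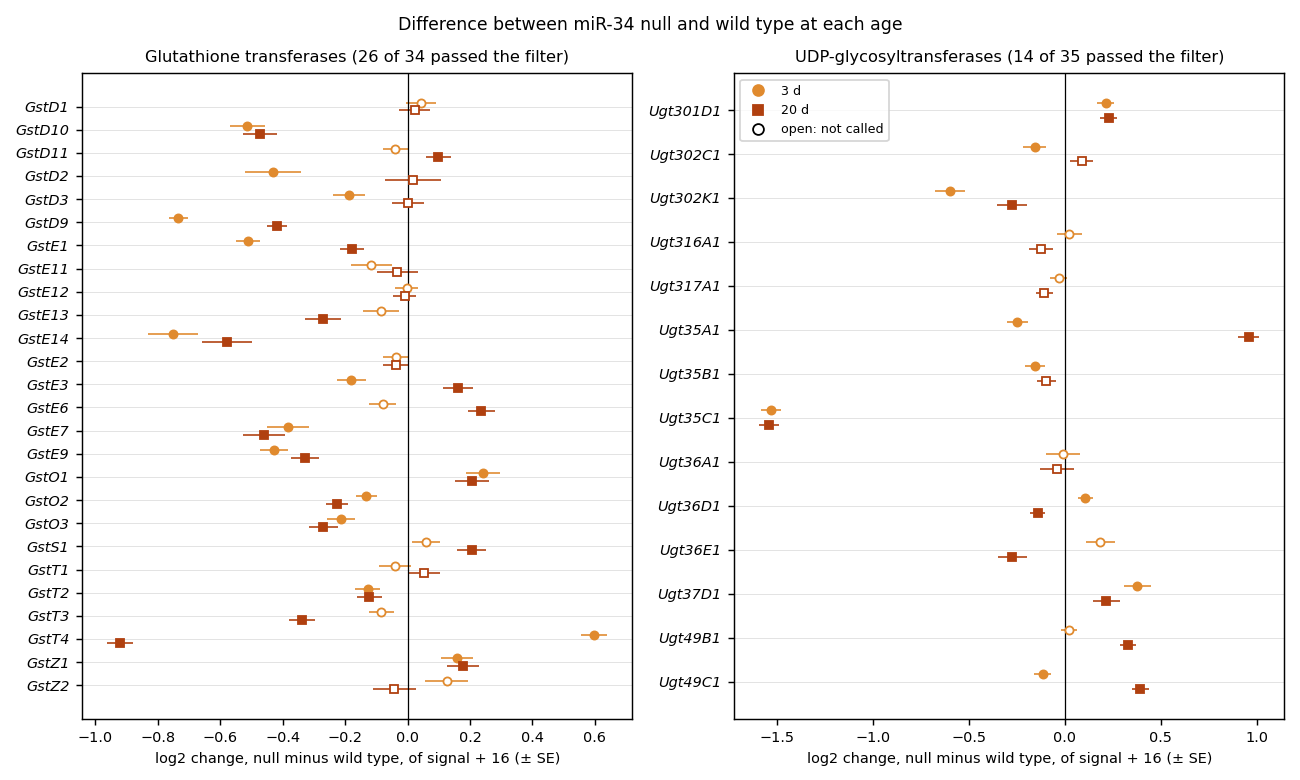
Log2 change of signal + 16, null minus wild type, with its SE for each tested member at 3 d (circles) and 20 d (squares), filled where called. Most filled glutathione transferase symbols lie left of 0, and GstT4, Ugt35A1 and Ugt35C1 lie farthest out.

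Most lower calls of young null brains fell in the delta and epsilon classes, with 4 of 6 delta and 5 of 10 epsilon genes lower and none higher. Over all genes 19% were lower and 16% higher at 3 d. The 5 epsilon genes include GstE14, which passed the filter through wild-type arrays alone. GstD9, one of the 5 brightest probe sets of the glutathione transferases, had the lowest log2 change of the tested delta genes at 3 d. It gave 1425, 1422, 1430, 1429 and 1448 in wild type and 822, 849.6, 847, 896 and 855 in the null at 3 d. In old brains it gave 1559, 1559, 1490, 1488 and 1509 in wild type and 1182, 1109, 1091, 1149 and 1142 in the null. Every null array lay below every wild-type array of the same age, and the log2 change was -0.73 ± 0.03 (SE, adjusted p = 1.4e-15) at 3 d and -0.42 ± 0.03 (SE, adjusted p = 6.47e-11) at 20 d. GstD10, its neighbour in the delta cluster, gave 23.2, 23.9, 27.4, 21.1 and 20.8 in wild type and 12.2, 11.0, 12.4, 13.2 and 8.85 in the null at 3 d. At 20 d the GstD10 signal was 44.1, 48.1, 44.4, 48.3 and 45.0 in wild type and 28.7, 29.7, 27.1, 27.9 and 30.1 in the null. Here too the genotypes did not overlap at either age, with changes of -0.51 ± 0.06 (SE, adjusted p = 5.16e-08) and -0.47 ± 0.06 (SE, adjusted p = 1.45e-07). On the young null arrays GstD10 never lay above the array median. GstE1 gave 889.7, 851, 897, 824 and 899.7 in wild type and 618, 605, 602, 572 and 641 in the null at 3 d and 934, 838, 858, 847 and 872 in wild type and 798, 774, 730.3, 739.5 and 789 in the null at 20 d. It was lower in the null at both ages without overlap, with changes of -0.51 ± 0.04 (SE, adjusted p = 1e-10) and -0.18 ± 0.04 (SE, adjusted p = 0.000464).

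GstE14 is Noppera-bo, a glutathione transferase needed for the synthesis of the steroid hormone ecdysone in the prothoracic gland and ovary. Its signal at 3 d was 29.5, 40.3, 29.0, 36.7 and 33.5 in wild type and 16.8, 15.7, 11.1, 9.59 and 15.1 in the null. At 20 d it was 24.8, 24.3, 23.9, 27.7 and 24.6 in wild type and 13.0, 9.94, 11.8, 7.91 and 15.5 in the null. The null arrays lay below the wild-type arrays at both ages. GstE14 passed the filter through wild-type arrays alone, 5 young and 3 old, and was named from the filtered fit. A lower null signal was thus a condition of its being tested. The counts of lower calls given above, at each age, at both ages and among the epsilon genes, include it. Its change is given here from the fit over all probe sets, which does not undo that choice. There the log2 change was -0.75 (adjusted p = 5.52e-08) at 3 d and -0.58 (adjusted p = 2.7e-06) at 20 d. Null signals of GstE14 were below every array median, and no ratio is drawn from values so dim.

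GstE9 and GstE7, epsilon genes at one end of their cluster, were lower in the null at both ages and higher at 20 d in both genotypes. GstE9 gave 118, 117, 126, 118 and 128 in wild type and 87.9, 89.5, 75.9, 84.4 and 92.8 in the null at 3 d. At 20 d its signal was 414, 431, 401, 445 and 428 in wild type and 336, 336, 324, 329.8 and 346 in the null. No pair of groups overlapped among those compared. The genotype change was -0.43 ± 0.04 (SE, adjusted p = 2.51e-08) at 3 d and -0.33 ± 0.04 (SE, adjusted p = 1.19e-06) at 20 d, and the change with age was 1.68 ± 0.04 (SE, adjusted p = 1.05e-19) in wild type and 1.78 ± 0.04 (SE, adjusted p = 2.84e-20) in the null. A dimmer probe set of GstE9, below the filter, was called higher with age in wild type (0.41 ± 0.06, SE, adjusted p = 8.62e-06) and null (0.17 ± 0.06, SE, adjusted p = 0.0381) when every probe set was fitted. It was lower in the old null (-0.30 ± 0.06, SE, adjusted p = 0.000562) and not called at 3 d (-0.06 ± 0.06, SE, adjusted p = 0.653). The interaction was called for neither probe set and had opposite signs, 0.10 and -0.24. GstE7 gave 84.0, 77.5, 81.8, 79.1 and 94.5 in wild type and 64, 61.3, 59.8, 50.6 and 65.3 in the null at 3 d. The 20 d signals were 197, 215, 252, 225 and 197 in wild type and 161, 144, 142, 152 and 167 in the null. The genotypes were apart at both ages (-0.38 and -0.46), and GstE7 rose with age by 1.23 ± 0.07 (SE, adjusted p = 1.56e-13) in wild type and 1.15 ± 0.07 (SE, adjusted p = 4.82e-13) in the null.

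**Figure D2:**
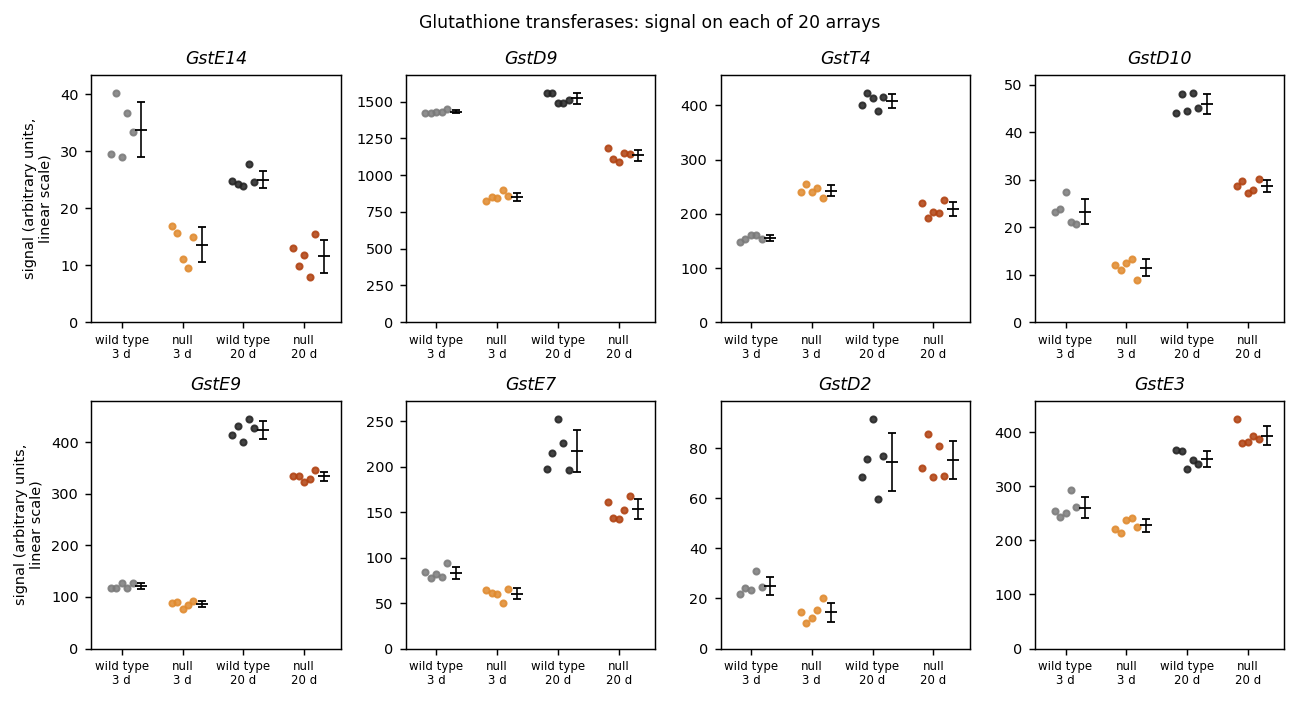
Signal of the 8 glutathione transferases named for the largest called changes on each of 20 arrays (points, linear axis from 0), with mean and SD of the 5 arrays of a group. GstT4 is highest in wild type at 20 d, while GstE9, GstE7 and GstD2 are higher at 20 d than at 3 d in both genotypes.

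Among the other tested delta and epsilon genes, GstD3 had mean signals of 549.7 ± 23.2 in wild type and 481 ± 24.6 in the null (SD, n = 5 each) at 3 d and 442 ± 42.7 in wild type and 441 ± 17.6 in the null (SD, n = 5 each) at 20 d. It was lower in the young null (-0.19 ± 0.05, SE, adjusted p = 0.00596), and its genotypes overlapped at 20 d. GstD11 had means of 164 ± 8.48 in wild type and 159 ± 5.60 in the null (SD, n = 5 each) at 3 d and 138 ± 1.60 in wild type and 149 ± 6.21 in the null (SD, n = 5 each) at 20 d, and it fell with age in wild type (-0.23 ± 0.04, SE, adjusted p = 3.42e-05). GstE13 had means of 626 ± 38.4 in wild type and 590.3 ± 43.6 in the null (SD, n = 5 each) at 3 d and 510.4 ± 36.1 in wild type and 420.3 ± 32.0 in the null (SD, n = 5 each) at 20 d. It fell with age in both genotypes (-0.29 and -0.47) and was lower in the old null (-0.27 ± 0.06, SE, adjusted p = 0.000473), although single arrays overlapped there. GstE11 was dim, from 29.4 to 45.5 over all arrays, and was not called between genotypes.

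GstT4, a theta enzyme encoded on the X chromosome, had the largest difference in ageing between the genotypes of any tested member. At 3 d it gave 147, 154, 160.3, 160.2 and 153 in wild type and 241, 256, 240.2, 247 and 230 in the null, so the null was higher. On the old arrays it read 401, 423, 414, 389 and 415 in wild type and 219.6, 192, 204, 202 and 225 in the null, and the null was lower. The genotype change was 0.60 ± 0.04 (SE, adjusted p = 2.79e-11) at 3 d and -0.92 ± 0.04 (SE, adjusted p = 7.02e-15) at 20 d, with no overlap at either age. Wild-type brains rose by 1.31 ± 0.04 (SE, adjusted p = 5.09e-18) from 3 d to 20 d, whereas null brains fell, with a change of -0.21 ± 0.04 (SE, adjusted p = 0.000202). The interaction, the change with age in the null minus that in wild type, was -1.52 ± 0.06 (SE, adjusted p = 4.95e-16). Of the other theta genes, GstT3 was lower in the null at 20 d (-0.34 ± 0.04, SE, adjusted p = 2.7e-07), GstT2 was lower at both ages by about the same amount (-0.13 and -0.12), and GstT1 was not called at either. Leaving out the first array of either young group ended the young call of GstT2 (adjusted p 0.0502 and 0.0526).

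The omega genes did not move as a block. These enzymes handle glutathione-linked thiol exchange and dehydroascorbate, and GstO3, GstO2 and GstO1 lie close together on arm 3L. GstO1 was higher in the null, with means of 56.9 ± 2.08 (SD, n = 5) in wild type and 70.2 ± 4.02 (SD, n = 5) in the null at 3 d. At 20 d the means were 85.8 ± 6.61 and 101 ± 8.20 (SD, n = 5 each), and the genotypes overlapped there. GstO3 was lower in the null, with changes of -0.21 ± 0.05 (SE, adjusted p = 0.000776) and -0.27 ± 0.05 (SE, adjusted p = 3.76e-05). GstO2 was lower too, with -0.13 ± 0.03 (SE, adjusted p = 0.00358) and -0.23 ± 0.03 (SE, adjusted p = 6.33e-06). A second GstO2 probe set gave -0.14 ± 0.04 (SE) and -0.21 ± 0.04 (SE). The gene se, an omega-class enzyme that makes a precursor of the red eye pigment and lies between GstO3 and GstO2, is no member because of its symbol. Its mean signal was 179.6 ± 4.54 (SD, n = 5) in young wild type and 20.2 ± 1.77 (SD, n = 5) in the young null. At 20 d the se means were 151 ± 9.96 and 17.8 ± 1.78 (SD, n = 5 each), with log2 changes of -2.44 and -2.30, while those of its 3 neighbours lay between -0.27 and 0.24.

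The remaining classes hold few genes. GstZ1, of the zeta class that isomerises maleylacetoacetate in tyrosine breakdown, was higher in the null at 3 d (0.16 ± 0.05, SE, adjusted p = 0.0177) and at 20 d (0.18 ± 0.05, SE, adjusted p = 0.00629). The young call was lost without the first young wild-type array (adjusted p = 0.0562). It rose with age by 0.49 and 0.51 in wild type and null, while its neighbour GstZ2 was not called between genotypes. GstS1, the sigma enzyme, which conjugates a product of lipid peroxidation and is abundant in flight muscle, was higher in the null at 20 d (0.20 ± 0.05, SE, adjusted p = 0.000816) and not called at 3 d. Muscle markers were also higher in the null, all 10 of 10 tested at 3 d, beside 16% of all genes. At 20 d 6 of 10 were higher and 2 lower, beside 21.7% and 25.7% of all genes. The summed signal of the muscle markers ran from 695 to 733 in young wild type and from 1452 to 1514 in the young null. At 20 d it ran from 861 to 926 and from 1047 to 1069, and the part of muscle RNA in the GstS1 difference was not tested.

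With age, 14 tested glutathione transferases rose and 5 fell in wild type, and 15 rose and 5 fell in the null. Over all genes 32.6% rose and 25.8% fell in wild type and 33.8% rose and 26.4% fell in the null. The median change was 0.11 in wild type, beside 0.02 for all genes, and 0.19 in the null, beside 0.03. Centring arrays on their medians moved the median of all genes in wild type from 0.02 to -0.13, and that of the tested glutathione transferases to -0.05, with 12 higher and 9 lower. Quantile normalization moved the median of all genes to -0.04 and that of the tested glutathione transferases to 0.25, with 17 higher and 5 lower. The wild-type and null comparisons share no arrays. Of the 14 that rose in wild type and the 15 that rose in the null, 12 were shared: GstD2, GstD9, GstD10, GstE3, GstE6, GstE7, GstE9, GstO1, GstO3, GstT1, GstT3 and GstZ1. Over all genes, 75.2% of those that rose in wild type and 72.6% of those that rose in the null rose in both, and 72.3% and 70.8% of those that fell did. GstD3, GstE2 and GstE13 were lower at 20 d in both, although the call of GstD3 in the null was lost on leaving out any of 13 arrays (adjusted p up to 0.132) and GstE2 was called in neither genotype under quantile normalization. GstT4 alone was called in opposite directions in the 2 genotypes.

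GstD2 rose most among the delta genes. At 3 d its signal was 21.6, 24.1, 23.2, 31.1 and 24.6 in wild type and 14.7, 10.2, 12.0, 15.2 and 20.2 in the null, and at 20 d it was 68.6, 75.8, 91.6, 59.8 and 76.9 in wild type and 72.2, 85.5, 68.7, 80.8 and 69.0 in the null. Every old array lay above every young one, by 1.14 ± 0.09 (SE, adjusted p = 1.55e-10) in wild type and 1.59 ± 0.09 (SE, adjusted p = 2.72e-13) in the null. The genotypes were apart at 3 d (-0.43 ± 0.09, SE, adjusted p = 0.000548) and overlapped at 20 d (0.02 ± 0.09, SE, adjusted p = 0.903). On the young null arrays GstD2 never lay above the array median. GstD9 and GstE1 also had called positive interactions, and both stayed called lower in the null at 20 d. The change with age was 0.09 in wild type and 0.40 in the null for GstD9. GstE1 was not called with age in wild type (-0.004 ± 0.04, SE, adjusted p = 0.934) and rose by 0.33 in the null. The small wild-type rise of GstD9 turned to -0.07 under median centring and lost its call without the second old wild-type array (adjusted p = 0.0536).

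GstE3 and GstE6, epsilon genes, rose in both genotypes and more in the null. GstE3 gave 254, 243, 250.1, 293 and 262 in wild type and 221, 213, 238, 241 and 225 in the null at 3 d. The old arrays gave 367, 366, 332, 348 and 341 in wild type and 424, 381, 383, 394 and 388 in the null. The null was below wild type at 3 d (-0.18 ± 0.05, SE, adjusted p = 0.00428) and above it at 20 d (0.16 ± 0.05, SE, adjusted p = 0.00732), without overlap at either age. The rise was 0.41 in wild type and 0.75 in the null, an interaction of 0.34 ± 0.07 (SE, adjusted p = 0.000537). GstE6 rose by 0.42 and 0.73 and was not called between genotypes at 3 d.

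The interaction was called for 7 of the 26 tested glutathione transferases. In GstD2, GstD9, GstE1, GstE3 and GstE6 the change with age was more positive in the null, and in GstT3 and GstT4 it was more negative. Over all genes 7.75% were called in the first direction and 10.2% in the second. Under median centring, which moved the median interaction of all genes from 0.01 to 0.13, 12 were called, 11 of them more positive in the null, and GstT3 was no longer called (adjusted p = 0.135). The call of GstD2 was lost with 64 added to the signals in place of 16 (adjusted p = 0.0648).

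**Figure D3:**
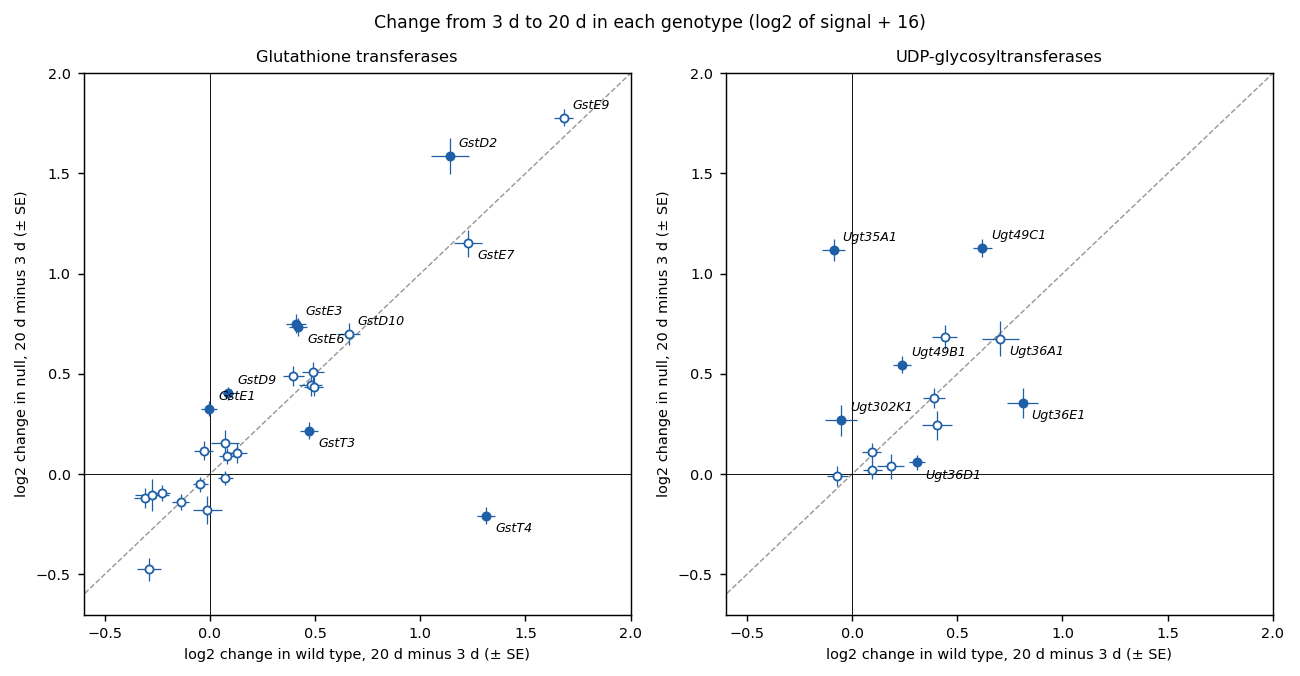
Change with age in wild type (horizontal) against that in the null (vertical), in log2 of signal + 16 with SE, 1 point a tested member, filled where the interaction was called; the dashed line marks equal change. GstT4 lies far below the line and Ugt35A1 far above it.

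The UDP-glycosyltransferases split by genotype without a common direction. Of the 14 tested, 3 were higher in the null at 3 d, 6 were lower and 5 were not called, and at 20 d 5 were higher, 4 lower and 5 not called. The backgrounds are those given above, 16% higher and 19% lower at 3 d and 21.7% and 25.7% at 20 d. The median log2 change was -0.02 at 3 d, where leaving out 1 array gave values from -0.05, without the fourth young null array, to -0.00, without the fifth, and median centring gave -0.07. At 20 d it was -0.07, and it was 0.00 under median centring, with 6 higher and 3 lower, and -0.02 under quantile normalization. Ugt35C1 and Ugt302K1 were lower at both ages and Ugt301D1 and Ugt37D1 higher at both. Ugt35A1, Ugt36D1 and Ugt49C1 were called in opposite directions at the 2 ages, with the young call of Ugt36D1 (0.11) lost on leaving out any of 6 arrays (adjusted p up to 0.0802), so 4 members had the same direction among the 9 called at 3 d and the 9 called at 20 d. Over all genes, 64.9% of the higher and 68.2% of the lower calls at 3 d were also made at 20 d, and 47.7% and 50.5% of those at 20 d were also made at 3 d.

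Ugt35C1 had the largest genotype difference of any tested member. This gene, known earlier as Ugt86Dd, carries alleles that set how well larvae withstand nicotine. At 3 d its signal was 119.7, 115, 108, 125 and 124 in wild type and 26.1, 32.8, 31.0, 33.4 and 29.3 in the null. At 20 d it was 151, 169.8, 164, 162 and 152 in wild type and 41.6, 45.4, 45.6, 47.1 and 42.5 in the null. The wild-type mean was 3.88 times the null mean at 3 d and 3.6 times at 20 d. The log2 change was -1.53 ± 0.05 (SE, adjusted p = 2.4e-17) at 3 d and -1.54 ± 0.05 (SE, adjusted p = 1.99e-17) at 20 d, without overlap at either age. It rose with age by 0.39 ± 0.05 (SE, adjusted p = 1.1e-06) in wild type and 0.38 ± 0.05 (SE, adjusted p = 1.38e-06) in the null, and the interaction was -0.01 ± 0.07 (SE, adjusted p = 0.957).

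Ugt302K1, the next member along the same gene cluster, was also lower in the null. It gave 34.4, 34.9, 34.6, 37.8 and 33.4 in wild type and 16.7, 20.1, 18.6, 17.2 and 16.1 in the null at 3 d. In old brains it gave 42.3, 34.5, 31.5, 29.5 and 29.1 in wild type and 31.6, 19.9, 21.7, 22.0 and 29.3 in the null. The groups were apart at 3 d (-0.60 ± 0.08, SE, adjusted p = 9.83e-07) and overlapped at 20 d (-0.27 ± 0.08, SE, adjusted p = 0.00518). On the young null arrays Ugt302K1 never lay above the array median. Its interaction of 0.32 ± 0.11 (SE, adjusted p = 0.042) was lost on leaving out any of 14 of the 20 arrays (adjusted p 0.0509 to 0.082). Ugt35B1, the brightest probe set of the family and first described from the antenna, gave 1393, 1410, 1375, 1399 and 1473 in wild type and 1268, 1351, 1232, 1341 and 1136 in the null at 3 d. The 20 d signals were 1441, 1330, 1269, 1330 and 1350 in wild type and 1425, 1198, 1227, 1243 and 1192 in the null. Its young difference was small (-0.16 ± 0.05, SE, adjusted p = 0.0173) and was lost without the fifth young null array (adjusted p = 0.0571), and no change with age was called.

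**Figure D4:**
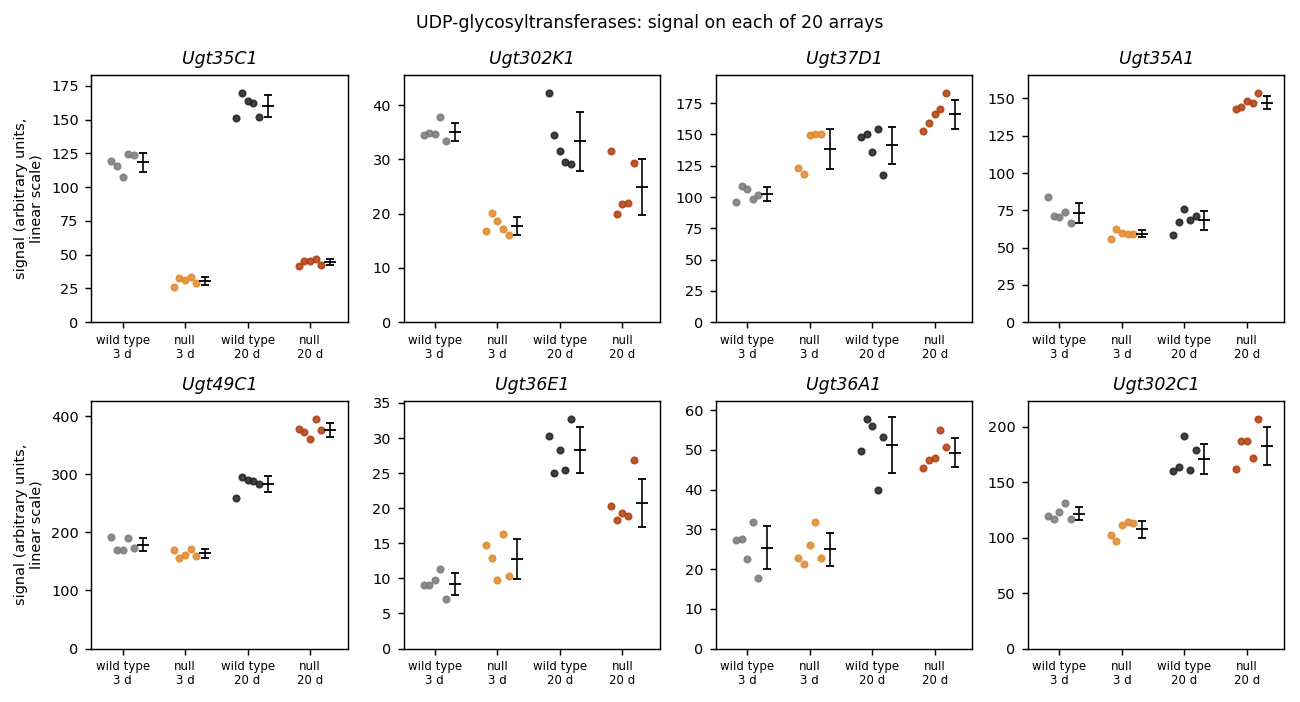
Signal of the 8 UDP-glycosyltransferases named for the largest called changes on each of 20 arrays (points, linear axis from 0), with mean and SD of the 5 arrays of a group. Ugt35C1 is low in the null at both ages, and Ugt35A1 is high in the null at 20 d alone among its 4 groups.

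Ugt35A1, the neighbour of Ugt35B1, was the member with the largest positive interaction. At 3 d it gave 84.2, 71.3, 70.8, 74.0 and 66.5 in wild type and 55.8, 62.2, 59.9, 58.9 and 59.1 in the null, and at 20 d 58.5, 67.1, 76.1, 68.4 and 70.9 in wild type and 143, 144, 148, 147 and 154 in the null. The old null arrays lay above all 15 others, whose signals ran from 55.8 to 84.2. The null was lower at 3 d (-0.25 ± 0.06, SE, adjusted p = 0.00103) and higher at 20 d (0.96 ± 0.06, SE, adjusted p = 6.67e-13). The change with age was 1.12 ± 0.06 (SE, adjusted p = 1.85e-14) in the null and -0.09 ± 0.06 (SE, adjusted p = 0.19) in wild type, and the interaction was 1.21 ± 0.08 (SE, adjusted p = 1.2e-11). Under median centring the wild-type change was -0.24 (adjusted p = 0.00127).

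Ugt49C1 and Ugt49B1 are adjacent on arm 2R, and both rose with age in both genotypes. Ugt49C1 gave 192, 170.2, 169.5, 190.5 and 172 in wild type and 170.5, 156, 161, 172 and 159 in the null at 3 d. On the old arrays it read 259, 295, 291, 288 and 284 in wild type and 378, 372, 361, 395 and 376 in the null. It rose by 0.62 ± 0.04 (SE, adjusted p = 1.94e-11) in wild type and 1.13 ± 0.04 (SE, adjusted p = 1.84e-16) in the null, and the null was higher at 20 d (0.39 ± 0.04, SE, adjusted p = 7.99e-08). Its small young difference (-0.12 ± 0.04, SE, adjusted p = 0.0445) was lost on leaving out any of 8 arrays (adjusted p 0.0511 to 0.13). Ugt49B1 gave 359, 355, 366, 379 and 355 in wild type and 353, 382, 369, 380.1 and 358 in the null at 3 d and 406, 461, 427, 461 and 404 in wild type and 568, 549.7, 543, 566 and 503 in the null at 20 d. The genotypes overlapped at 3 d and were apart at 20 d (0.33 ± 0.04, SE, adjusted p = 7.18e-07), with a rise of 0.24 in wild type and 0.55 in the null.

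Ugt37D1 and Ugt301D1 were higher in the null. Ugt37D1 gave 96.4, 109, 107, 98.8 and 102 in wild type and 124, 118, 149, 150.5 and 151 in the null at 3 d and 148, 150, 136, 154 and 118 in wild type and 152, 159, 166, 170.5 and 183 in the null at 20 d. The genotypes were apart at 3 d (0.38 ± 0.07, SE, adjusted p = 0.00015) and overlapped at 20 d (0.22 ± 0.07, SE, adjusted p = 0.0143), a call that was lost without the fifth old wild-type array (adjusted p = 0.0586). It rose with age in both genotypes, by 0.40 and 0.24. Ugt301D1 gave 139, 131, 128, 151 and 145 in wild type and 168, 152, 171, 158 and 167 in the null at 3 d. The old arrays gave 147, 154, 145, 154 and 145 in wild type and 170.4, 172, 179, 174 and 192 in the null. The difference was of like size at both ages, 0.21 ± 0.05 (SE, adjusted p = 0.000706) and 0.23 ± 0.05 (SE, adjusted p = 0.000232), without overlap.

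The 3 tested members of the Ugt36 group rose with age in wild type. Ugt36E1, the dimmest tested member, gave 9.01, 9.09, 9.75, 11.4 and 7.03 in wild type and 14.7, 12.9, 9.73, 16.3 and 10.3 in the null at 3 d and 30.3, 25.0, 28.3, 25.4 and 32.7 in wild type and 20.4, 18.3, 19.3, 18.9 and 26.8 in the null at 20 d. It passed the filter through the 5 old wild-type arrays and 1 old null array, and its young signals lay below every array median. A rise in wild type was thus a condition of its being tested. The counts of this family with age, of lower calls at 20 d and of negative interactions include it. Its changes are given here from the fit over all probe sets. There it rose by 0.81 (adjusted p = 2.19e-09) in wild type and by 0.35 (adjusted p = 0.000398) in the null, with an interaction of -0.46 (adjusted p = 0.00348). At 20 d it was lower in the null (-0.27, adjusted p = 0.00598), where the fifth null array, at 26.8, reached into the wild-type range. Ugt36D1, its neighbour, gave 153, 159, 148, 152 and 159 in wild type and 157, 167, 173, 169 and 171 in the null at 3 d. In old brains it gave 197, 199, 184, 198 and 194 in wild type and 170, 182, 183, 170.1 and 170.1 in the null. It rose in wild type by 0.31 ± 0.04 (SE, adjusted p = 3.07e-07), was not called in the null (0.06 ± 0.04, SE, adjusted p = 0.191), and had an interaction of -0.25 ± 0.05 (SE, adjusted p = 0.00155), which was no longer called under median centring (adjusted p = 0.132). Ugt36A1 gave 27.4, 27.6, 22.4, 31.8 and 17.7 in wild type and 22.9, 21.2, 26.1, 31.8 and 22.9 in the null at 3 d and 49.6, 57.7, 56.0, 39.9 and 53.2 in wild type and 45.5, 47.4, 47.9, 54.9 and 50.7 in the null at 20 d. It rose by 0.70 ± 0.09 (SE, adjusted p = 3.85e-07) and 0.68 ± 0.09 (SE, adjusted p = 6.7e-07), and its genotypes overlapped at both ages.

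No tested UDP-glycosyltransferase was called lower with age, beside 25.8% of all genes in wild type and 26.4% in the null. In wild type 9 of 14 rose and in the null 10 of 14, against 32.6% and 33.8% of all genes, and the median change was 0.27 and 0.31 beside 0.02 and 0.03. Both counts include Ugt36E1, whose rise in wild type was a condition of its being tested. The wild-type median was 0.12 under median centring. Under the other scalings 3 members were lower in wild type with median centring and 2 with quantile normalization, and none was lower in the null. The 7 that rose in both, of the 9 and the 10, were Ugt302C1, Ugt35C1, Ugt36A1, Ugt36E1, Ugt37D1, Ugt49B1 and Ugt49C1, beside 75.2% and 72.6% over all genes. Ugt302C1 gave 119.7, 117, 123, 131 and 116 in wild type and 103, 96.6, 112, 114 and 113 in the null at 3 d. The 20 d signals were 159.7, 164, 191, 161 and 179 in wild type and 162, 186, 187, 172 and 207 in the null. It rose by 0.44 ± 0.06 (SE, adjusted p = 1.33e-06) in wild type and 0.68 ± 0.06 (SE, adjusted p = 9.44e-10) in the null. Ugt316A1 was called higher with age in wild type (0.18 ± 0.06, SE, adjusted p = 0.0175), a call lost without the third old or the second young wild-type array (adjusted p 0.0576 and 0.0595), and Ugt317A1 was called in no comparison. The interaction was called in 6 of the 14, positive in Ugt302K1, Ugt35A1, Ugt49B1 and Ugt49C1 and negative in Ugt36D1 and Ugt36E1, against 7.75% and 10.2% of all genes. Under median centring 5 were positive and 1 was negative.

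Members below the filter were read in a fit over all probe sets. Of the 8 glutathione transferases there, 1 was higher and 2 lower in the null at 3 d, 2 higher and 2 lower at 20 d, and 3 rose in wild type and 2 in the null. Of the 21 UDP-glycosyltransferases 2 were lower at 3 d, 1 higher and 3 lower at 20 d, and 8 rose in wild type and 7 in the null, where 1 fell. The interaction was called in 1 of them in each direction. Over all genes below the filter 6.26% were higher and 4.32% lower at 3 d, 5.87% and 10.4% at 20 d, and 13.7% rose in wild type and 10.8% in the null, where 7.08% fell. The interaction was positive in 2.08% and negative in 6.12%. GstD5, a delta gene, was higher in the null at 3 d, from 5.66 to 8.93 against 2.54 to 3.67 in wild type (log2 change 0.28, adjusted p = 8.62e-05). Ugt36F1 ran from 8.49 to 9.04 in the old null and from 3.25 to 5.22 in old wild type (0.29, adjusted p = 1.61e-05), with an interaction of 0.33 (adjusted p = 0.000592). Ugt37B1 ran from 0.378 to 2.91 in young wild type and from 0.0592 to 0.528 in the young null, and from 16.3 to 21.2 and from 13.9 to 18.5 in the old groups. In the fit over all probe sets it rose by 1.00 in wild type (adjusted p = 1.54e-13) and by 0.97 in the null (adjusted p = 2.19e-13). Ugt50B3 reached 19.7 to 25.4 in old wild type and 6.28 to 11.6 in the old null. Its interaction in that fit was -0.47 (adjusted p = 0.000843). Ugt35E2, which lies in the cluster of Ugt35C1, ran from 13.2 to 20.6 in young wild type and from 5.86 to 8.31 in the young null (log2 change -0.50). These values lie near or below the array medians of 19.1 to 25, and the other members below the filter are given here by their range alone.

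Most members lie in runs of neighbouring genes, counted here as members with at most 3 other genes between them. The order comes from the RefSeq annotation of Release 6 plus ISO1 MT, in which all 69 members were found by symbol. No coordinates are given, because the sources used here do not give the build behind the array. In the delta run on arm 3R, in the order GstD10, GstD9, GstD1, GstD2, GstD3, GstD4 to GstD8 and GstD11, GstD1 was not called between genotypes at either age while GstD9 and GstD10 on one side and GstD2 and GstD3 on the other were lower in the young null. In the epsilon run on arm 2R 4 of the 6 tested genes were lower in the young null and none was higher, and with age the change in the null went from -0.14 in GstE2 to 1.78 in GstE9. In the run from Ugt35C1 to Ugt303A1 on arm 3R all 5 tested genes were lower in the young null, with changes from -1.53 to -0.16, of which that of Ugt302C1 was lost on leaving out any of 14 arrays (adjusted p up to 0.139). Over all genes 19% were lower in the young null. At 20 d the same run held 2 lower genes and 1 higher gene, Ugt35A1. Close copies in such runs can share probe sequence, and 4 members were read by probe sets that the maker marks as shared between transcripts (GstS1, Ugt36E1, Ugt37D1 and Ugt50B3).

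**Figure D5:**
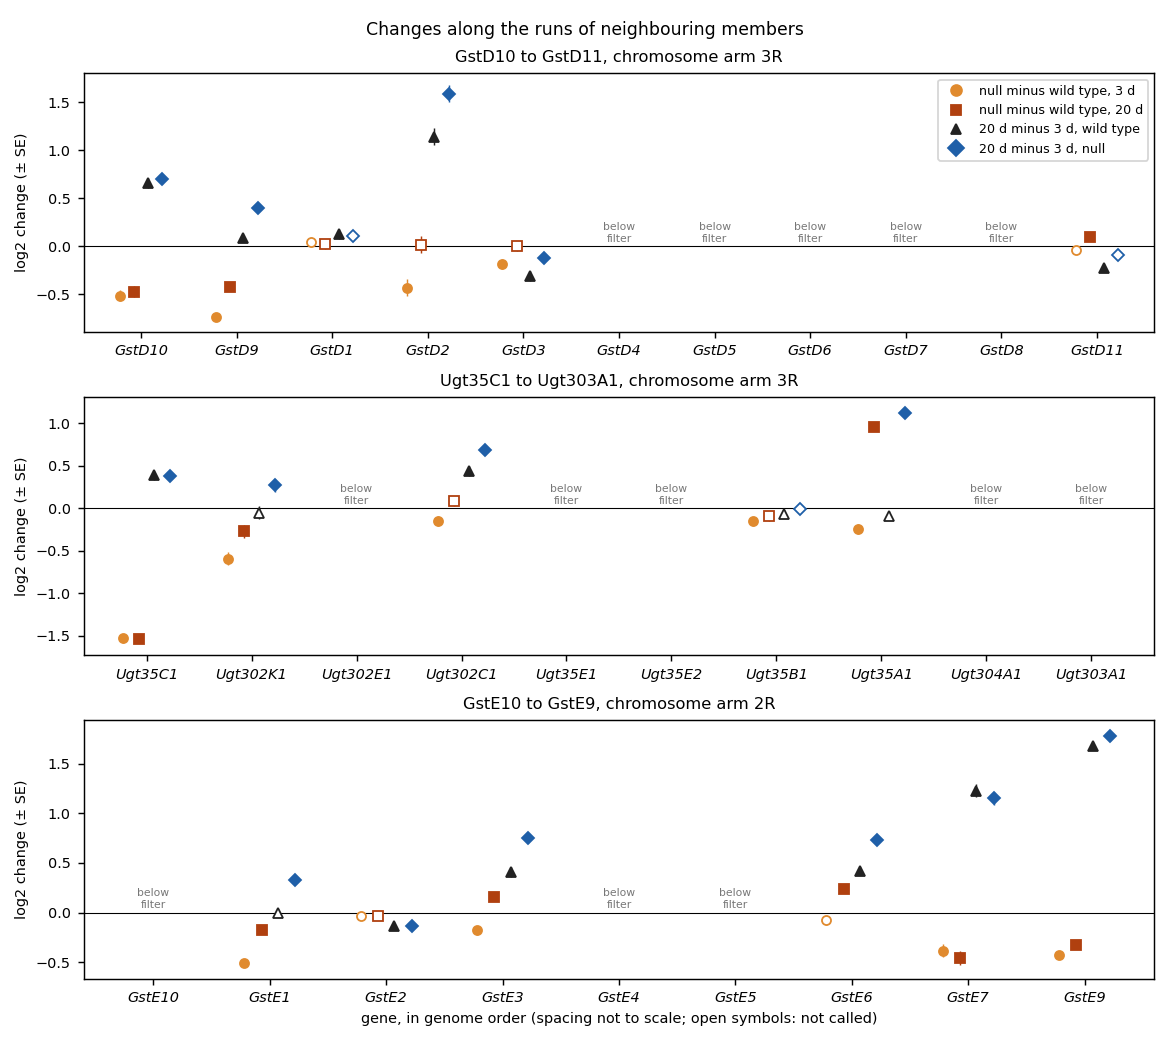
Log2 change of signal + 16 with its SE along the 3 longest runs of members in genome order, for 4 comparisons (symbols), filled where called; spacing is not to scale. In the run from Ugt35C1 the 5 young genotype changes lie below 0 and range from -1.53 to -0.16.

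Genes that supply the substrates and control these enzymes were read from 3 lists. In the list on glutathione supply and thioredoxin, 5 of 14 tested genes were lower in the young null and none was higher, against 19% and 16% of all genes. At 20 d 4 were lower and 1 was higher, against 25.7% and 21.7%, so the lower share was near the background. Gclc, the catalytic subunit of the enzyme that limits glutathione synthesis, was lower in the null (-0.14 ± 0.03 at 3 d and -0.11 ± 0.03 at 20 d) and rose with age (0.22 ± 0.03 and 0.24 ± 0.03). Grx1, a glutaredoxin, was lower in the null (-0.34 ± 0.05 and -0.62 ± 0.05). Ggt-1, which breaks glutathione down, fell with age (-0.63 ± 0.10 and -0.83 ± 0.10), and Prx6c, a peroxiredoxin, had an interaction of 0.63 ± 0.10. With age 6 of the list fell in each genotype, while 1 rose in wild type and 3 in the null, against 25.8% and 26.4% of all genes that fell and 32.6% and 33.8% that rose.

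Among 12 tested regulators of detoxification genes none was called between genotypes at 3 d, where 16% of all genes were higher and 19% lower, and 2 were higher and 2 lower at 20 d, beside 21.7% and 25.7%. The gene for CncC, cnc, rose with age by 0.32 ± 0.04 in wild type and 0.40 ± 0.04 in the null and did not differ in a call between genotypes (0.00 ± 0.04 and 0.08 ± 0.04). Hnf4, a nuclear receptor for fatty acids, rose by 0.53 ± 0.07 and 0.42 ± 0.07. The gene kay, the fly counterpart of Fos, was higher in the old null (0.28 ± 0.06), and it was the one regulator with a called interaction (0.29 ± 0.09). In the list of other conjugation, UDP-sugar supply and export, 8 of 15 tested genes rose and 2 fell in ageing wild type, and 6 rose and 2 fell in the ageing null. Over all genes 32.6% rose and 25.8% fell in wild type and 33.8% rose and 26.4% fell in the null, so the 6 of 15 lay near the background. UGP, which makes UDP-glucose, was higher in the null (0.39 ± 0.08 and 0.63 ± 0.08) and rose with age (0.91 ± 0.08 and 1.15 ± 0.08). The 3 d means of UGP (9.70 in wild type and 17.6 in the null) and St1 (13.1 and 13.6) lay below the array medians. Both passed the filter through old arrays, so a rise with age was a condition of their being tested. The counts of rising genes in this list include both. The gene sgl, whose enzyme turns UDP-glucose into UDP-glucuronate, was higher in the null (0.40 ± 0.07 and 0.34 ± 0.07). Mdr65, an export pump of the glia that form the blood-brain barrier, was lower in the null (-0.37 ± 0.04 and -0.35 ± 0.04) and fell with age (-0.44 ± 0.04 and -0.42 ± 0.04).

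The labelled tissue was checked against markers, and markers of other tissues differed between groups alongside the members. Neuronal and glial markers summed to 8546 to 11660 over 11 neuronal and 9864 to 12120 over 12 glial genes. VGlut, the vesicular glutamate transporter, was the dim exception among the neuronal genes at 12.8 to 34.9, while brp, the next, gave 155 to 208. Of the neuronal genes 8 of 11 fell with age in wild type and 7 in the null. Among all genes 25.8% fell and 32.6% rose with age in wild type, and 26.4% fell and 33.8% rose in the null. The same shares stand beside the age counts of the other tissues below. Photoreceptor markers were lower in the null in 6 of 7 at each age, beside 19% of all genes at 3 d and 25.7% at 20 d. Their median changes were -1.04 and -0.92. Their summed signal ran from 6580 to 6826 in young wild type and from 4473 to 4999 in the young null, and from 6772 to 7291 and from 4447 to 4952 at 20 d. Of 12 haemocyte markers 8 rose and 3 fell with age in each genotype, with medians of 0.79 in wild type and 0.55 in the null. The rising counts include He, srp and eater, whose 3 d means lay below the medians of the young arrays. Their passing the filter thus rested on the old arrays, and the count of 8 was in part fixed in advance. The haemocyte sum went the other way, from between 3504 and 3613 to between 2941 and 3069 in wild type and from between 3550 and 3721 to between 3350 and 3431 in the null. Fat body markers rose with age in wild type in 10 of 10 tested, and in the null in 7 with 1 lower. Their summed signal went from between 4669 and 4885 to between 6932 and 7224 in wild type and from between 3795 and 3892 to between 5754 and 6270 in the null. Digestive tract markers were higher in the young null in 9 of 9 tested, beside 16% of all genes, and summed there to between 2411 and 2482. In the other 3 groups their sum was between 94.3 and 177.7, where Jon99Fi, a Jonah protease, was as low as 0.129. Outside the young null the means of Jon25Biii, Jon65Aiv, Jon74E, Jon99Ci, Jon99Fi and betaTry lay below the array medians. These markers thus passed the filter through the young null and had to be higher there, so the count of 9 was in part fixed in advance. Markers of the odour organs, where Ugt35B1 was first described, summed to 1668 to 1770 in young wild type and 696 to 710.5 in the young null, and to 1931 to 2022 and 1074 to 1139 at 20 d. Of 11 tested, 7 were lower and 2 higher in the null at 3 d, and 8 lower and 2 higher at 20 d. Over all genes 19% were lower and 16% higher at 3 d, and 25.7% and 21.7% at 20 d. In ageing wild type 3 rose and 5 fell although the sum rose, and in the ageing null 10 rose and none fell. Obp28a, Obp83b and lush passed the filter through young wild type alone, so they had to be higher there. The oenocyte list rose in old wild type to between 1568 and 1721, nearly all of it Cyp4g1, and stood between 55.2 and 137 in the other groups. The part of RNA from these tissues in the changes of the members was not tested.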

How the data were processed

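Total RNA of dissected fly brains was labelled with biotin and read on Affymetrix Drosophila 2 arrays, 1 colour, 20 arrays in 4 groups of 5. Per the labels' protocols RNA was extracted with Trizol, and the submitters' processing notes name MAS5 and GCRMA, without versions or parameters. The deposited intensity values are linear, none is negative, and the mean after trimming 2% at each end was 150 on every array, as MAS5 scaling leaves it. No deposited column was left unused (0). Groups came from the sample titles. The members and the gene lists were chosen with earlier results of these data known.

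From these values, 183 control probe sets were removed, 18769 remained, and log2(signal + 16) was computed. Probe sets above the median of their array on at least 5 arrays (9806) were fitted with limma 3.58.1 in R 4.3.3, using 4 group means, empirical Bayes with trend and robust settings, 5 contrasts and Benjamini-Hochberg adjustment over all probe sets in each contrast. For counts over genes, the probe set of highest mean signal stood for a gene. Gene symbols came from GEO's platform annotation, and all 69 members matched RefSeq (Release 6 plus ISO1 MT). Within each family, the 3 members with the largest called change in each comparison and the 5 brightest were named with their values on every array, and context genes were drawn from the 3 largest called changes of each list in a comparison, except Gclc, which was chosen after its values were seen, as were the members below the filter that are named with values. On simulated signals drawn from these data, the 3 d comparison recovered 65.5% of 200 probe sets changed by 0.25 on the log2 scale and 96% of those changed by 0.5. The interaction recovered 28% and 90.5%, so an interaction that was not called can still be present. Changing 200 of 9806 probe sets is a smaller share than was called in the data, and recovery can differ there. Repeat numbers were checked for pairing over 30 pairs of same-numbered arrays. Of these, 16 correlated above 0.1 in their deviations from the group means (range -0.184 to 0.554). Arrays of unlike number were not compared, so the check cannot settle whether equal numbers share a batch. The main fit did not use repeat numbers as pairs. Alternatives were the pseudocount (1 and 64), the filter, the scaling, the eBayes settings, a fit on 2 groups, other probe sets, the repeat number as a block and leaving out each array. Promoter motifs and protein identities, planned as descriptions, were not analysed here.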

Additional observations from a re-analysis of the deposited data

Results flagged for a closer look

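In 6 of 160 checked groups of 5 arrays, 1 array of a tested member stood far from the others, and chance would flag about 1 group in 20. GstE14 read 27.7 on the fourth old wild-type array, with the others from 23.9 to 24.8. GstO1 was low on the first array of both old groups, at 74.4 in wild type (others 86.6 to 90.7) and 87.0 in the null (others 102.9 to 107). In the old null, Ugt317A1 read 104.8 on the fifth array (others 112 to 115), Ugt35B1 read 1425 on the first (others 1192 to 1243), and Ugt36E1 read 26.8 on the fifth (others 18.3 to 20.4).

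The change with age differed between the genotypes, by limma's interaction term, in 13 of the 40 tested members. Over all genes 7.75% were called more positive in the null and 10.2% more negative. GstT3 and Ugt36D1 were no longer called under median centring, as given above. In the null minus wild type it was 0.45 ± 0.13 for GstD2 (adjusted p = 0.0156), 0.32 ± 0.04 for GstD9 (5.95e-06), 0.33 ± 0.05 for GstE1 (6.32e-05), 0.34 ± 0.07 for GstE3 (0.000537) and 0.32 ± 0.06 for GstE6 (0.000483), with SE after each value. It was -0.25 ± 0.06 for GstT3 (0.00245) and -1.52 ± 0.06 for GstT4 (4.95e-16). Among the UDP-glycosyltransferases it was 0.32 ± 0.11 for Ugt302K1 (0.042), 1.21 ± 0.08 for Ugt35A1 (1.2e-11), 0.31 ± 0.06 for Ugt49B1 (0.000494) and 0.51 ± 0.06 for Ugt49C1 (9.58e-07), and it was -0.25 ± 0.05 for Ugt36D1 (0.00155) and -0.46 ± 0.10 for Ugt36E1 (0.00267). Ugt36E1 passed the filter through 5 old wild-type arrays and 1 old null array, which favoured a negative interaction. Its value from the fit over all probe sets is given above.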

How the results depend on the processing

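Of the 122 called member results, 17 lost their call when 1 array was left out, and none changed sign. Those not given above were GstD11 at 20 d (12 arrays, adjusted p up to 0.119) and, in the ageing null, GstE11 (9 arrays, 0.122), GstS1 (6 arrays, 0.106), GstZ2 (3 arrays, 0.111) and Ugt301D1 (6 arrays, 0.133). Leaving out each of the 20 arrays gave 13 to 16, 17 to 18, 18 to 20, 16 to 20 and 7 to 10 called glutathione transferases for genotype at 3 d and 20 d, age in wild type and null, and the interaction. The same ranges were 6 to 10, 9 to 10, 8 to 11, 9 to 10 and 5 to 7 for the UDP-glycosyltransferases. Other counts that moved by over 1.5 times were the glutathione transferase interaction under median centring (12 in place of 7) and, with no filter, the UDP-glycosyltransferase age counts, 17 in wild type and 17 in the null among 35 tested, in place of 9 and 10 among 14. Single changes that turned sign and were called in either setting were all with age: under median centring GstD1 (-0.031) and GstD9 (-0.071) in wild type, and under quantile normalization GstE1 (0.091), GstE2 (0.001), GstE12 (0.098) and Ugt35B1 (0.074) in wild type and GstE12 (0.098) and Ugt35B1 (0.135) in the null. The cause was not tested. Others turned sign without a call in either setting, 23 under median centring and 17 under quantile normalization, among them the 20 d genotype changes of GstE11 and GstZ2 under both. Of the 200 single results, the number that lost a call was 11 under median centring, 8 under quantile normalization, 9 with no filter, 7 in fits on 2 groups (no interaction there), 4 with a pseudocount of 64, 2 with the block, 1 without the trend and robust settings and 0 with a pseudocount of 1. GstE14 and Ugt36E1 could not be fitted under a filter on the mean over all arrays, which left them out. Over all genes, median centring turned the calls from 1232 higher and 1466 lower to 879 and 2124 for genotype at 3 d, from 1674 and 1979 to 2474 and 1213 at 20 d, from 2514 and 1989 to 1297 and 3805 with age in wild type, and from 597 and 785 to 2138 and 478 in the interaction, and quantile normalization gave 1871 and 2523 with age in wild type. With the repeat number as a block the counts were 15, 17, 19, 19 and 8 for the glutathione transferases and 9, 9, 9, 10 and 7 for the UDP-glycosyltransferases. That block ended the calls of GstD11 at 20 d (adjusted p = 0.061) and GstE11 in the ageing null (0.0527) and added interactions of GstD3 (0.0459) and Ugt302C1 (0.0308).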
